A study of Mus musculus with 19 samples.

Results

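The Slc22 genes encode membrane carriers for organic anions, organic cations, zwitterions and urate. The 9 members described here are Slc22a2, Slc22a4, Slc22a5, Slc22a6, Slc22a7, Slc22a8, Slc22a12, Slc22a18 and Slc22a19. They were taken by name, with earlier results of these data known. A total of 14 of 45141 probe sets were annotated to 1 of these 9 genes alone, out of 17097 genes with a named probe set, and 0 were annotated to a member together with another gene. Whole-kidney RNA of 19 male mice was profiled, 1 mouse per Affymetrix HT MG-430 PM array, to ask what fasting alone does to renal gene expression. In the aged-overweight cohort, FVB-C57BL/6J F1 hybrids with a mean age of 73 weeks and a mean weight of 47 g, 5 mice were fasted for 3 days with water only and 5 were fed ad libitum. In the young-lean cohort, C57BL/6J animals aged 10 to 14 weeks and weighing 22 to 25 g, 4 mice underwent the same 3 days of fasting and 5 were fed ad libitum. None of the mice had undergone renal ischemia, and the labels name no transgene or drug. Both cohorts differ in age, strain and weight at once, and these cannot be told apart.

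Proximal tubule cells take organic anions from the blood through the basolateral exchangers Oat1 (Slc22a6) and Oat3 (Slc22a8), which trade them for dicarboxylates such as alpha-ketoglutarate, and release them into the urine through apical carriers. In rodents, Oat2 (Slc22a7) and Oat5 (Slc22a19) are found in the late proximal tubule, and Urat1 (Slc22a12) takes urate back from the urine. On the cation side, Oct2 (Slc22a2) takes up organic cations from the blood, Octn1 (Slc22a4) carries ergothioneine and Octn2 (Slc22a5) reclaims carnitine. Slc22a18 is an imprinted gene whose product has been described as a candidate organic cation carrier.

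Levels are log2 values normalized by the authors with the RMA algorithm. The median level of an array was 3.46 to 3.49 in aged fasted mice, 3.44 to 3.48 in aged ad libitum fed mice, 4.18 to 4.21 in young fasted mice and 4.15 to 4.19 in young ad libitum fed mice, so diets were compared within an age only. Arrays of one group correlated at 0.988 to 0.997. Transcripts of the proximal tubule were present on every array, with a sum of 5 measured markers of its first segments between 12.33 and 12.99 on the log2 scale. Sums of markers, here and below, were taken on unlogged levels and then logged. The brightest genes weigh most in such a sum, here mostly Slc4a4 and Slc5a12. Of these 5 markers 0 rose and 2 fell at both ages: the glucose carrier Slc5a2 changed by -1.09 on the log2 scale in aged and by -0.89 in young kidneys, and the amino acid carrier Slc7a7 by -0.60 in aged and by -1.05 in young kidneys. The other 3 did not pass at either age. The summed level overlapped between diets, at 12.71 to 12.99 in aged fasted and 12.63 to 12.98 in aged ad libitum fed kidneys. In young kidneys it was 12.51 to 12.82 in fasted and 12.33 to 12.95 in ad libitum fed mice. The median of the 5 levels did not overlap. It was 9.81 to 10.39 in aged fasted and 10.50 to 10.71 in aged ad libitum fed kidneys. In young kidneys it was 8.53 to 8.79 in fasted and 9.26 to 9.95 in ad libitum fed mice. That median lies mostly at the level of Slc7a7, so it largely repeats the fall of that gene. The part of these markers in the Slc22 results was not tested. Liver transcripts stood apart on 1 array: 7 measured liver markers summed to 13.78 on the log2 scale in mouse33 of the aged fasted group, against 10.90 to 11.00 in the other 4 aged fasted mice and 11.53 to 11.73 in aged ad libitum fed mice. They summed to 12.28 to 12.37 in young fasted mice and 12.12 to 12.51 in young ad libitum fed mice. The liver marker level used below as a covariate is the median of the 7 markers, not their sum. It was 10.25 in mouse33, 5.41 to 7.33 in the other 4 aged fasted mice and 5.50 to 7.99 in aged ad libitum fed mice. In young mice it was 7.61 to 9.41 in fasted mice, highest in mouse339, and 6.72 to 8.21 in ad libitum fed mice. Of the 7 liver markers, 1 rose and 0 fell with fasting in aged kidneys, and 3 rose and 1 fell in young kidneys. The covariate can thus carry part of the diet effect, and a result lost with it cannot be assigned to liver RNA.

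Fasting was accompanied by a strong loss of Slc22a7 and a gain of Slc22a8 at both ages, with Slc22a8 rising at 1 of its 2 probe sets in aged and at both in young kidneys. Slc22a19 fell in young kidneys, Slc22a2 and Slc22a18 fell by less at both ages, Slc22a4 and 1 probe set of Slc22a5 rose in young kidneys, and no change of Slc22a12 was detected. The call required a fold change of at least 1.5 together with an adjusted p from limma not above 0.05, adjusted by Benjamini-Hochberg over all 45141 probe sets. In aged kidneys 2 of the 14 Slc22 probe sets were called, 1 up and 1 down, where 1.89% of all probe sets were called. In young kidneys 4 of 14 were called, 2 up and 2 down, against 5.31% of all. Without a fold minimum, 1 probe set rose and 5 fell in aged kidneys, where 3.16% of all probe sets rose and 3.32% fell. In young kidneys 5 rose and 6 fell, where 10.1% of all rose and 9.54% fell. The 2 diets did not overlap at 5 of 14 probe sets in aged kidneys, against 7.25% of all, and at 10 of 14 in young kidneys, against 17.2% of all. The median absolute log2 fold change of the 14 probe sets was 0.33 in aged and 0.45 in young kidneys, against 0.09 and 0.10 over all probe sets, and 11 of 14 had the same sign at both ages. All 14 were bright, at percentiles 77.3 to 99.2 of the mean level within an age, while all probe sets include dim ones. Shares and medians among probe sets of like level were not computed. In whole-kidney RNA, fewer cells of a type and less RNA per cell cannot be told apart.

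**Figure D1:**
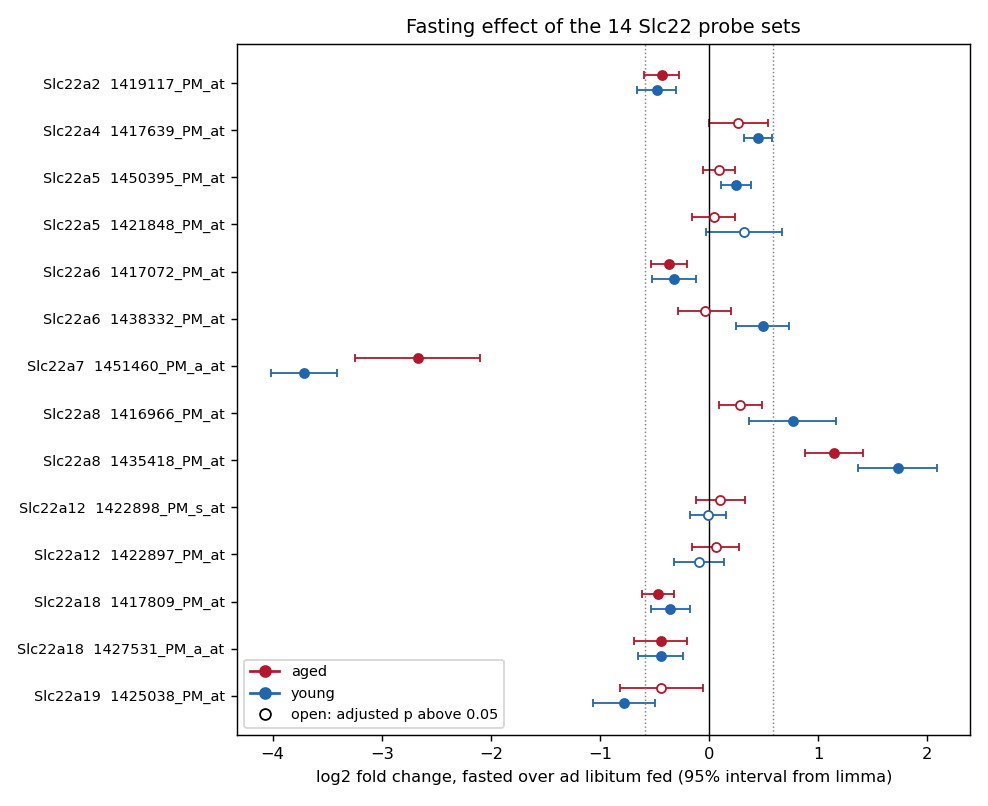
Log2 fold change of fasted over ad libitum fed kidneys (x axis) with its 95% interval from limma for the 14 Slc22 probe sets (y axis), in aged (red) and young (blue) mice. Open points have an adjusted p above 0.05 and dotted lines mark a fold change of 1.5. Slc22a7 lies at -2.67 in aged and -3.71 in young kidneys, and 1 probe set of Slc22a8 at 1.14 and 1.73.

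Slc22a8 and Slc22a6, the basolateral pair of anion exchangers, are neighbours on mouse chromosome 19 and carry overlapping sets of anions, and their probe sets did not all move in one direction. Their promoters are shown because they are the only members with a promoter in the table whose window from 250 bases before to 50 bases after the start site held the hexamer GTTAAT, part of the sites bound by HNF1, a factor of the proximal tubule and liver. The sequences are from RefSeq with the build GRCm38.p6, 5′ to 3′ on the plus strand, at chr19:8617746-8618045 for Slc22a6 and chr19:8592932-8593231 for Slc22a8, with the hexamer in capitals.
Slc22a6: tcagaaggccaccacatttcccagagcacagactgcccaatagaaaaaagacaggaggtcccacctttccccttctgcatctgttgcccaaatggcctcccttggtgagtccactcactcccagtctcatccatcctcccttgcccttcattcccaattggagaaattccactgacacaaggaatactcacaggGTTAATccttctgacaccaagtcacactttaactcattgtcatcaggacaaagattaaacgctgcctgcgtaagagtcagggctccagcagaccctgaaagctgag
Slc22a8: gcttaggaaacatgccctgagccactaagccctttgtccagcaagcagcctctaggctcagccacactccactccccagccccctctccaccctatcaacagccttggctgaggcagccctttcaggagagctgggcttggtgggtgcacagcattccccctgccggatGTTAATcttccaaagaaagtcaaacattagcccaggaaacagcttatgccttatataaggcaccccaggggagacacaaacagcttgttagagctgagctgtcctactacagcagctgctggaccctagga
The hexamer begins 56 bases before the start site of Slc22a6 and 81 bases before that of Slc22a8, on the coding strand of each. It occurs on either strand in 7.10% of 32851 promoters of the same length, and in 2 of the 8 members with a promoter in the table.

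At the probe set 1435418_PM_at of Slc22a8, the log2 levels were 8.53, 8.66, 8.77, 8.81 and 8.91 in aged fasted kidneys, against 7.37, 7.40, 7.41, 7.81 and 7.96 in aged ad libitum fed kidneys. In young kidneys they were 8.95, 9.03, 9.21 and 9.71 in fasted mice, against 7.22, 7.30, 7.42, 7.74 and 7.80 in ad libitum fed mice. Every fasted mouse lay above every ad libitum fed mouse of its age. Slc22a8 rose 2.21-fold in aged kidneys by this probe set, a log2 fold change of 1.14 (standard error, SE, 0.12, adjusted p = 0.000151), and 3.32-fold in young kidneys, a log2 fold change of 1.73 (SE 0.16, adjusted p = 3.19e-05). The second probe set, 1416966_PM_at, was the brighter one. Its levels were 10.32, 10.56, 10.63, 10.72 and 10.75 in aged fasted kidneys and 10.12, 10.29, 10.32, 10.38 and 10.43 in aged ad libitum fed kidneys, so the groups overlapped. The log2 fold change there was 0.29 (SE 0.09, adjusted p = 0.0903), which did not pass the test. It passed on the same 10 arrays in a robust fit with a variance trend (adjusted p = 0.0429), and without aged fasted mouse38 (0.35, adjusted p = 0.0298). In young kidneys the levels were 9.42, 9.50, 9.62 and 10.02 in fasted mice, against 8.21, 8.97, 8.98, 9.09 and 9.12 in ad libitum fed mice. They did not overlap, and the probe set rose 1.70-fold, a log2 fold change of 0.77 (SE 0.18, adjusted p = 0.0118). That call was lost in the ordinary test without moderated variances (adjusted p = 0.0679). Without young ad libitum fed mouse349, at 8.21, the log2 fold change was 0.60, just above the minimum for a call of 0.585.

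**Figure D2:**
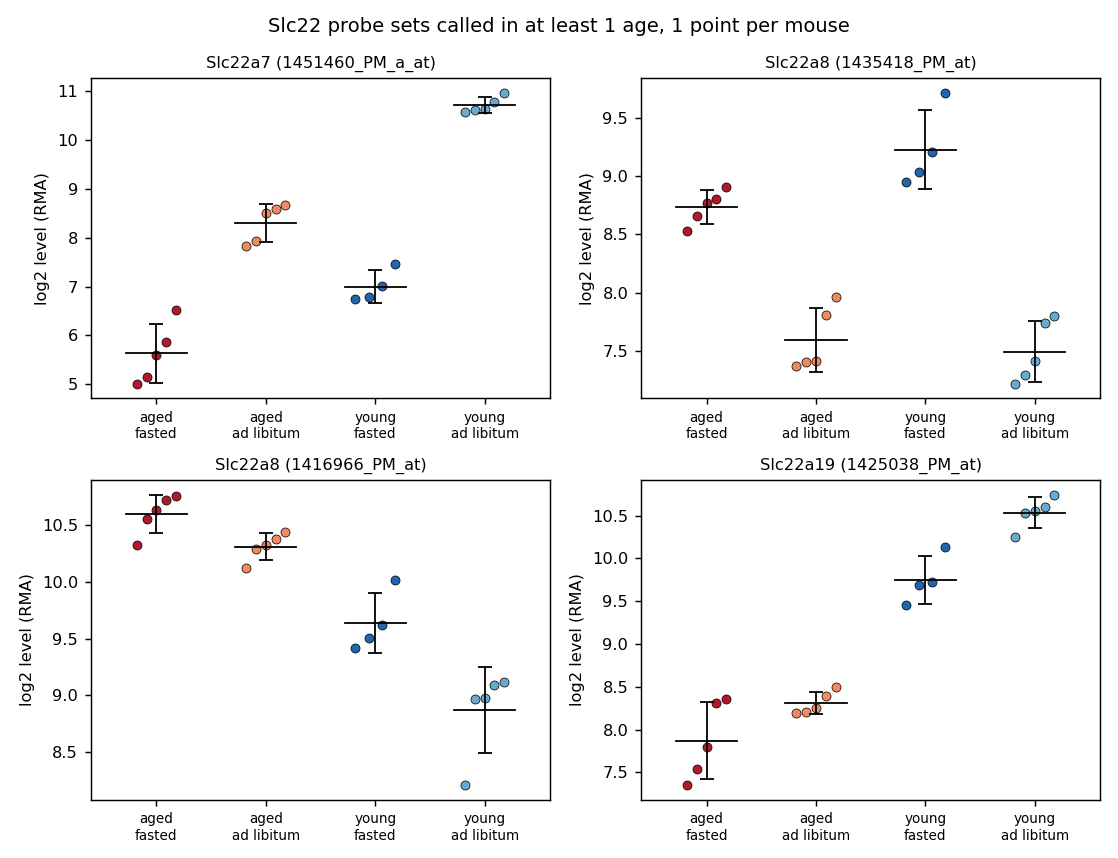
Log2 level (y axis) of the 4 Slc22 probe sets called in at least 1 age, with 1 point per mouse and the group mean and SD as bars. The groups are fasted and ad libitum fed mice of each age. For Slc22a7 the aged fasted mice lie between 5.02 and 6.53, all below the aged ad libitum fed mice at 7.83 to 8.68.

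Slc22a6 had one probe set that fell at both ages and one that did not. The brighter, 1417072_PM_at, ranged between 11.34 and 11.51 in aged fasted kidneys, against 11.60 to 11.91 in aged ad libitum fed kidneys, and fell by 0.37 on the log2 scale (SE 0.07, adjusted p = 0.0106). It ranged between 10.15 and 10.36 in young fasted and 10.32 to 10.73 in young ad libitum fed kidneys, with an overlap, and fell by 0.32 (SE 0.09, adjusted p = 0.0272). The young result did not pass in the ordinary test (adjusted p = 0.0774), with the liver marker level as a covariate (adjusted p = 0.123), or without any one of young ad libitum fed mouse346, mouse347 and mouse348 and young fasted mouse343 and mouse344 (adjusted p = 0.0588 to 0.0768). The other probe set, 1438332_PM_at, was at 8.47 to 8.73 in aged fasted kidneys and 8.21 to 8.88 in aged ad libitum fed kidneys, a log2 fold change of -0.04 (SE 0.11, adjusted p = 0.90). In young kidneys it was at 8.79 to 9.13 in fasted mice and at 8.24 to 8.74 in ad libitum fed mice, and rose by a log2 fold change of 0.49 (SE 0.11, adjusted p = 0.00848). In young kidneys both probe sets of Slc22a6 thus passed the test in opposite directions, and no single direction can be given for the gene.

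The distance between both probe sets of a gene on the log2 scale was taken on each array. Its size depends on the probes, and only its change between diets was read, as a description chosen after values were seen. For Slc22a8 the brighter minus the dimmer probe set was 1.86 ± 0.08 in aged fasted kidneys and 2.72 ± 0.22 in aged ad libitum fed kidneys (SD, n = 5 each), and 0.41 ± 0.20 in young fasted kidneys (SD, n = 4) and 1.38 ± 0.26 in young ad libitum fed kidneys (SD, n = 5). Fasted and fed mice of one age did not overlap. For Slc22a6 it was 2.85 ± 0.14 in aged fasted and 3.18 ± 0.18 in aged ad libitum fed kidneys (SD, n = 5 each), which overlapped. In young kidneys it was 1.29 ± 0.06 in fasted mice (SD, n = 4) and 2.10 ± 0.16 in ad libitum fed mice (SD, n = 5), with no overlap. For Slc22a5, Slc22a12 and Slc22a18 the mean distance differed between diets by at most 0.09 at either age.

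**Figure D3:**
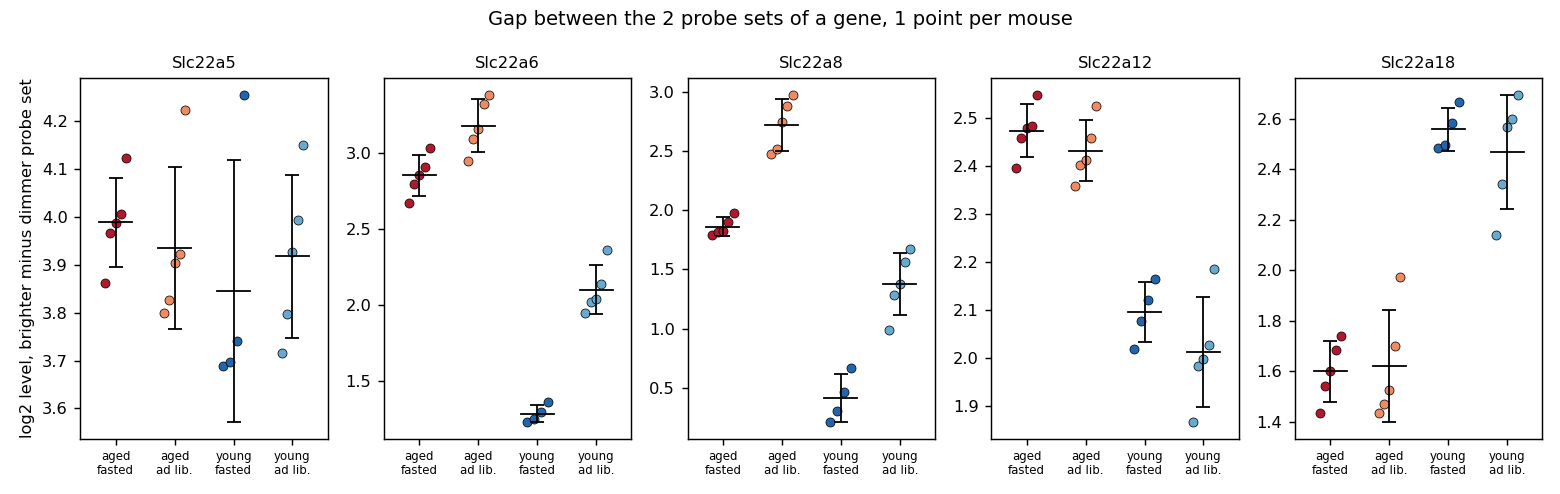
Log2 level of the brighter minus that of the dimmer probe set (y axis) of the 5 members with 2 probe sets, 1 point per mouse, with the group mean and SD. The gap of Slc22a8 is narrower in fasted than in ad libitum fed mice at both ages (1.86 against 2.72 in aged and 0.41 against 1.38 in young kidneys), and that of Slc22a6 is narrower in young fasted mice (1.29 against 2.10).

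Slc22a7, the anion carrier Oat2, had the largest change of the 14 probe sets at both ages. Its single probe set, 1451460_PM_a_at, was at log2 levels of 5.02, 5.15, 5.60, 5.88 and 6.53 in aged fasted kidneys, against 7.83, 7.93, 8.51, 8.58 and 8.68 in aged ad libitum fed kidneys. In young kidneys it was at 6.74, 6.78, 7.02 and 7.47 in fasted mice, against 10.57, 10.62, 10.64, 10.78 and 10.97 in ad libitum fed mice. The groups were far apart at both ages, with aged fasted mouse38 the highest of the aged fasted mice. Slc22a7 was 6.37-fold lower in aged fasted kidneys, a log2 fold change of -2.67 (SE 0.26, adjusted p = 7.74e-05 from limma), and 13.1-fold lower in young fasted kidneys, a log2 fold change of -3.71 (SE 0.14, adjusted p = 8.28e-08). Slc22a7 is also a gene of the liver. Leaving out mouse33 of the aged and mouse339 of the young fasted mice, the log2 fold changes were -2.73 and -3.64, and with the liver marker level as a covariate they were -2.63 and -3.72.

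Slc22a19, the rodent carrier Oat5, fell in young kidneys. Its probe set 1425038_PM_at was at 9.46, 9.68, 9.73 and 10.14 in young fasted kidneys, against 10.25, 10.53, 10.55, 10.60 and 10.75 in young ad libitum fed kidneys, with no overlap. It was 1.72-fold lower, a log2 fold change of -0.78 (SE 0.13, adjusted p = 0.00138). In aged kidneys the levels were 7.35, 7.54, 7.80, 8.31 and 8.35 in fasted mice, against 8.19, 8.21, 8.26, 8.40 and 8.50 in ad libitum fed mice. There 3 fasted mice lay below all fed mice and the other 2, mouse33 and mouse38, lay among them. The log2 fold change of -0.44 (SE 0.18, adjusted p = 0.188) did not pass the test. The neighbouring gene Slc22a26 codes for a related transporter, and whether probes of one bind transcripts of the other was not examined.

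Within a group, mice with more Slc22a7 also had more Slc22a19. After the mean of each of the 4 groups was taken off, both genes correlated over 19 arrays with Pearson's r = 0.847 (permutation p = 0.00018, adjusted p = 0.00648) and Spearman's rho = 0.865 (permutation p = 0.00011, adjusted p = 0.00396), from 100000 two-sided permutations within groups and adjusted over the 36 pairs of members. Without the 2 mice farthest from the median of Slc22a7, r was 0.753. It was 0.875 in the 10 aged and 0.794 in the 9 young arrays. None of the other 35 pairs passed the adjustment. The pair was singled out after its values were seen.

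**Figure D4:**
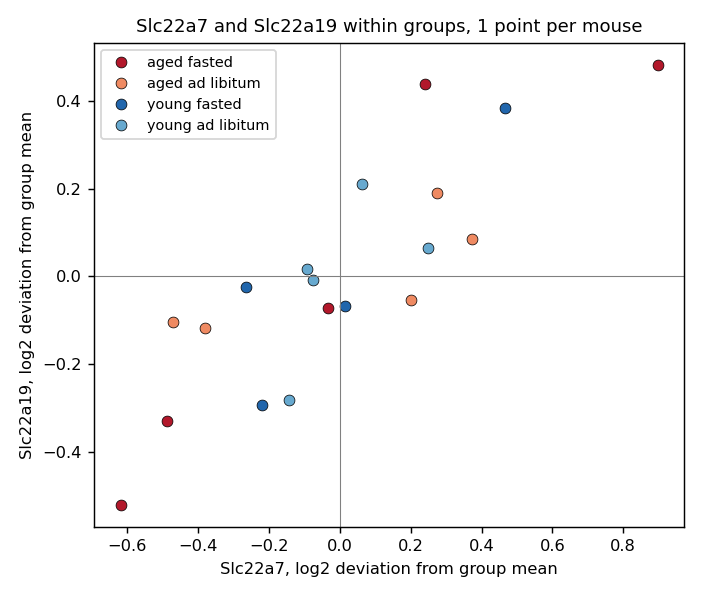
Deviation of each mouse from the mean of its group, in log2 units, for Slc22a7 (x axis) and Slc22a19 (y axis), with 1 point per mouse. Mice above their group mean for one gene tend to lie above it for the other (r = 0.847 over 19 arrays).

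Markers of the third segment of the proximal tubule, where both carriers are known to be expressed in rodents, are given beside them. The 6 measured of 7 markers summed to log2 levels of 12.75 to 13.19 in aged fasted and 13.07 to 13.48 in aged ad libitum fed kidneys, and of 13.33 to 13.49 in young fasted and 13.99 to 14.15 in young ad libitum fed kidneys. The sum did not overlap between diets in young kidneys and overlapped in aged kidneys. It weighs most on the brightest markers, among them Slc7a13 and Atp11a. The median of the 6 levels overlapped between diets at both ages. It was 9.95 to 10.32 in aged fasted and 9.82 to 10.32 in aged ad libitum fed kidneys. In young kidneys it was 10.71 to 10.87 in fasted and 10.68 to 10.86 in ad libitum fed mice. In aged kidneys 2 of the 6 rose and 2 fell, and in young kidneys 2 rose and 3 fell. The amino acid carrier Slc7a13 fell by 0.59 in aged and 0.89 in young kidneys and the phospholipid flippase Atp11a by 0.71 and 0.98 on the log2 scale, and the sugar carrier Slc5a10 rose by log2 fold changes of 0.51 and 1.14. Slc7a12 rose in aged kidneys by 1.47 (adjusted p = 0.009, 0.0637 in the ordinary test) and had -0.20 in young kidneys (adjusted p = 0.625). Slc6a18 rose in young kidneys by 0.39 (adjusted p = 0.0156, 0.0592 in the ordinary test) and had 0.04 in aged kidneys (adjusted p = 0.854). In aged kidneys the fall of Slc7a13 (adjusted p = 0.0411) did not pass in 3 other settings or when any of 6 of the 10 aged mice was left out, the exceptions being ad libitum fed mouse40 and fasted mouse33, mouse38 and mouse42 (adjusted p = 0.0543 to 0.134), and that of Atp11a did not pass in the ordinary test (adjusted p = 0.0629). Cyp7b1, an oxysterol hydroxylase, had a log2 fold change of -0.65 in aged kidneys (adjusted p = 0.0541, while it passed in 3 other settings and without ad libitum fed mouse40 or fasted mouse38, at 0.00682 to 0.0416) and fell by 0.76 in young kidneys. Its deviations within groups correlated with those of Slc22a7 (r = 0.824, permutation p = 0.00163, adjusted p = 0.0196, and rho = 0.756, permutation p = 0.00321, adjusted p = 0.0248) and of Slc22a19 (r = 0.74, permutation p = 0.00682, adjusted p = 0.0409, and rho = 0.746, permutation p = 0.00413, adjusted p = 0.0248), over 19 arrays and adjusted over 12 pairs of a member and a marker. Without the 2 farthest mice these r were 0.694 and 0.582. The other 10 pairs did not pass, among them those of Slc7a12, with r = -0.50 for Slc22a7 and -0.51 for Slc22a19. The part of segment markers in the fall of either carrier was not tested.

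The 3 genes outside the family whose pattern was most like that of Slc22a7, by Pearson's r over 19 arrays after the mean of each age was taken off, were Invs (inversin, a protein of the primary cilium, r = 0.98), the ubiquitin ligase Herc4 (r = 0.978) and the membrane protein Tmco3 (r = 0.977). These values carry the diet effect that all 3 share with Slc22a7. Once each group mean was taken off, r was 0.677 for Invs, 0.462 for Herc4 and 0.367 for Tmco3.

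Slc22a12, the urate carrier Urat1, had no detected change at either probe set or age. At 1422898_PM_s_at the level was 11.20 to 11.36 in aged fasted and 10.78 to 11.33 in aged ad libitum fed kidneys, and 11.49 to 11.59 in young fasted and 11.41 to 11.79 in young ad libitum fed kidneys. The log2 fold change was 0.10 in aged kidneys (95% interval -0.12 to 0.32) and -0.01 in young kidneys (95% interval -0.18 to 0.15), which leaves changes of 1.5-fold outside both intervals. At 1422897_PM_at it was 0.06 (-0.15 to 0.28) in aged and -0.09 (-0.32 to 0.14) in young kidneys. Of 9 measured genes that handle urate, 1 rose, 1 fell and 7 did not pass in aged kidneys, with a median log2 fold change of 0.05 against -0.01 over all genes. In young kidneys 1 rose, 2 fell and 6 did not pass, with a median of -0.03 against -0.01. The apical exporter Slc17a3 fell by 0.41 in aged kidneys (SE 0.08, adjusted p = 0.00623) and by 0.47 in young kidneys (SE 0.07, adjusted p = 0.000783). The scaffold Pdzk1, which binds Urat1, fell by 0.31 in young kidneys and had a log2 fold change of -0.15 in aged kidneys (adjusted p = 0.27). The urate and hexose carrier Slc2a9 rose by log2 fold changes of 0.67 in aged (adjusted p = 0.0453) and 0.58 in young kidneys (adjusted p = 0.00223). The aged rise did not pass with quantile normalization, in the ordinary test, with the liver marker level as a covariate, or when any of 9 of the 10 aged mice was left out, the exception being fasted mouse42 (adjusted p = 0.0524 to 0.149 over these settings).

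Slc22a2, the cation carrier Oct2, was lower in fasted kidneys of both ages with no overlap. Its levels at 1419117_PM_at were 9.64 to 9.96 in aged fasted and 10.13 to 10.32 in aged ad libitum fed kidneys, and 10.15 to 10.41 in young fasted and 10.66 to 10.94 in young ad libitum fed kidneys. It fell by 0.44 on the log2 scale in aged kidneys (SE 0.07, adjusted p = 0.00374) and by 0.48 in young kidneys (SE 0.08, adjusted p = 0.0016), both short of 1.5-fold.

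Slc22a18 fell by a similar amount at both of its probe sets. The promoter of Slc22a18 is shown with that of Slc22a19, because they alone among the 8 members with a promoter in the table held the hexamer AGAACA, part of the sites bound by androgen and glucocorticoid receptors. The sequences are from RefSeq with the build GRCm38.p6, 5′ to 3′ along the gene, at chr7:143473539-143473838 on the plus strand for Slc22a18 and chr19:7711261-7711560 on the minus strand for Slc22a19, with the hexamer in capitals (for Slc22a19 its reverse complement, since the match is on the other strand).
Slc22a18: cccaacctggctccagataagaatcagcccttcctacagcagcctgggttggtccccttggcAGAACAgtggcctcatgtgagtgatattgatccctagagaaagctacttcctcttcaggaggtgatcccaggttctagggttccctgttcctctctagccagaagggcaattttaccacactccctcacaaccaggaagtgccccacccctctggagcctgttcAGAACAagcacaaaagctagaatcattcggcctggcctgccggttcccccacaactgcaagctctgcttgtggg
Slc22a19: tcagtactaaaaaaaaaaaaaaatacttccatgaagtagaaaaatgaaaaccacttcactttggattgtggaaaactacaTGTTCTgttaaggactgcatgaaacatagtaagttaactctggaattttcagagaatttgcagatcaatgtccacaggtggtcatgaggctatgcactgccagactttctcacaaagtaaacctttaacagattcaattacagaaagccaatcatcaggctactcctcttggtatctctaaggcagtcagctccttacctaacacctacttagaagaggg
The matches begin 188 and 24 bases before the start site of Slc22a18 and 170 bases before that of Slc22a19. AGAACA occurs on either strand in 19.0% of 32851 promoters and in 2 of the 8 members with a promoter. The other motifs searched, AGGTCA, its direct repeat with 1 base between (DR1), the forkhead motif TGTTTAC and the antioxidant response core TGACNNNGC, occur in 16.3%, 0.0396%, 3.65% and 12.4% of promoters and in 0 of the 8 members. No promoter of Slc22a7 was used.

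At 1417809_PM_at Slc22a18 was at 10.21 to 10.47 in aged fasted and 10.78 to 10.89 in aged ad libitum fed kidneys, and at 10.65 to 10.89 in young fasted and 10.97 to 11.30 in young ad libitum fed kidneys. Neither age overlapped. It fell by 0.47 in aged kidneys (SE 0.07, adjusted p = 0.00141) and by 0.36 in young kidneys (SE 0.08, adjusted p = 0.00991), and the young result did not pass with the liver marker level as a covariate (adjusted p = 0.0654). At 1427531_PM_a_at it was at 8.57 to 8.93 in aged fasted and 8.81 to 9.38 in aged ad libitum fed kidneys, with an overlap, and at 8.17 to 8.24 in young fasted and 8.32 to 8.83 in young ad libitum fed kidneys, with none. It fell by 0.44 at both ages, with SE 0.11 and adjusted p = 0.0325 in aged kidneys and SE 0.09 and adjusted p = 0.0065 in young kidneys. The aged result did not pass in the ordinary test (adjusted p = 0.095) or when any of 8 of the 10 aged mice was left out, the exceptions being ad libitum fed mouse40 and fasted mouse33 (adjusted p = 0.0538 to 0.0904).

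The carnitine carrier Slc22a5 and the ergothioneine carrier Slc22a4, which lie with Slc22a21 between them on chromosome 11, rose modestly in young kidneys. Slc22a4 (1417639_PM_at) was at 8.53 to 8.69 in young fasted and 8.10 to 8.20 in young ad libitum fed kidneys and rose by a log2 fold change of 0.45 (SE 0.06, adjusted p = 0.000248). In aged kidneys it was at 7.74 to 8.27 in fasted and 7.58 to 8.16 in ad libitum fed mice, a log2 fold change of 0.27 (SE 0.13, adjusted p = 0.277). Slc22a5 at its brighter probe set 1450395_PM_at was at 10.94 to 11.12 in young fasted and 10.69 to 10.90 in young ad libitum fed kidneys, without overlap, and rose by 0.25 (SE 0.06, adjusted p = 0.0177). That result did not pass without young fasted mouse343 (adjusted p = 0.0511) or mouse344 (adjusted p = 0.0528). In aged kidneys the log2 fold change was 0.09 (SE 0.07, adjusted p = 0.525). The dimmer probe set 1421848_PM_at had log2 fold changes of 0.04 in aged (adjusted p = 0.877) and 0.32 in young kidneys (adjusted p = 0.199), and the young value was 0.49 (adjusted p = 0.0132) without young fasted mouse339, whose level of 6.68 lay below the 7.33 to 7.43 of the other young fasted mice.

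Several genes that make or use carnitine rose in fasted kidneys of both ages. Of 9 measured genes, 4 rose, 0 fell and 5 did not pass in aged kidneys, with a median log2 fold change of 0.27 against -0.01 over all genes. In young kidneys 5 rose, 0 fell and 4 did not pass, with a median of 0.49 against -0.01. Over all probe sets 3.16% rose and 3.32% fell in aged kidneys, and 10.1% rose and 9.54% fell in young kidneys. The share over genes at their brightest probe set was not computed. Bbox1, the last enzyme of carnitine synthesis, rose by log2 fold changes of 1.49 in aged (SE 0.26) and 1.66 in young kidneys (SE 0.09). The mitochondrial carnitine-acylcarnitine carrier Slc25a20 rose by 0.85 and 1.18, carnitine palmitoyltransferase Cpt2 by 0.48 and 0.77, and Aldh9a1, an enzyme of carnitine synthesis, by 0.40 and 0.58, in aged and in young kidneys. The fifth to rise in young kidneys was Cpt1a, which passes fatty acids to carnitine at the outer mitochondrial membrane, with a log2 fold change of 0.49, with 0.27 in aged kidneys (adjusted p = 0.065, which passed in a robust fit, in one fit of all arrays and without ad libitum fed mouse34, at 0.0161 to 0.038).

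The fasting effect was compared between the ages by the interaction term of one limma fit to all 19 arrays, aged minus young. At an adjusted p of at most 0.05, 0 of 14 Slc22 probe sets differed, where 1.95% of all probe sets did, and 4 of 14 had an unadjusted p of at most 0.05, against 13.6% of all. The ordinary test without moderation also gave 0. The absolute log2 fold change was smaller in aged than in young kidneys at 10 of 14 probe sets, and at 55.2% of all. For Slc22a7 the difference was 1.04 (95% interval 0.35 to 1.74, adjusted p = 0.122), for Slc22a8 -0.59 at 1435418_PM_at (-1.04 to -0.14, adjusted p = 0.195) and -0.48 at 1416966_PM_at (-0.92 to -0.04, adjusted p = 0.306), and for Slc22a6 -0.53 at 1438332_PM_at (-0.88 to -0.19, adjusted p = 0.107). The last became -0.64 (adjusted p = 0.0245) without aged ad libitum fed mouse40. For Slc22a19 the difference was 0.34 (-0.15 to 0.84, adjusted p = 0.597), so its call in young and not in aged kidneys does not show that the ages differ.

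The ad libitum fed mice of both ages are given as a description without a test, since cohorts differ in strain, weight and, by their array medians, normalization. The median offset of all probe sets between them was -0.45 as deposited and 0.01 after all arrays were brought to one distribution by quantile normalization. Slc22a7 was at 8.31 ± 0.39 in aged and 10.72 ± 0.16 in young ad libitum fed kidneys (SD, n = 5 each), a difference of -2.41 as deposited and -1.97 after quantile normalization. Slc22a19 was at 8.31 ± 0.13 in aged and 10.54 ± 0.18 in young ad libitum fed kidneys, a difference of -2.22 and, after quantile normalization, -1.78. In the other direction, the brighter probe sets of Slc22a8 and Slc22a6 were higher in aged mice by 1.44 and 1.25, and by 1.88 and 1.62 after quantile normalization. None of these 4 probe sets overlapped between the ages either way. The dimmer probe sets of the same genes differed by 0.10 for Slc22a8 and 0.17 for Slc22a6 as deposited, with an overlap. After quantile normalization they were higher in aged mice by 0.65 for Slc22a8, with no overlap, and by 0.66 for Slc22a6, with an overlap. 

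The other carriers that move organic ions across the proximal tubule changed in both directions. Of 22 measured, 5 rose, 6 fell and 11 did not pass in aged kidneys, and 8 rose, 7 fell and 7 did not pass in young kidneys. The median log2 fold changes were 0.09 and -0.04, against -0.01 over all genes at both ages. Over all probe sets, 3.16% rose and 3.32% fell in aged kidneys, and 10.1% rose and 9.54% fell in young kidneys. Shares over all genes were not computed. The efflux pump Abcb1b rose by log2 fold changes of 1.66 in aged (SE 0.12) and 1.69 in young kidneys (SE 0.08). Abcc4, an apical pump for organic anions, rose by 0.89 and 1.76, and the dicarboxylate carrier Slc13a2, which takes dicarboxylates back from the urine, by 1.08 and 1.20. The sulfate exchanger Slc26a1 fell by 0.82 in aged and 1.41 in young kidneys. Of 11 measured regulators and scaffolds, 0 rose and 1 fell in aged kidneys and 3 rose and 3 fell in young kidneys. Their medians were 0.06 and 0.02, against -0.01 over all genes. The scaffold Slc9a3r1 fell by 0.42 in aged and 0.49 in young kidneys. The nuclear receptor Nr1i3 and the forkhead factor Foxo3 rose by log2 fold changes of 0.55 and 0.53 in young kidneys, and had 0.45 (adjusted p = 0.213) and 0.32 (adjusted p = 0.151) in aged kidneys. In young kidneys the bile acid receptor Nr1h4 also rose, by 0.63 (adjusted p = 0.0154), and the glucocorticoid receptor Nr3c1 fell by 0.29 (adjusted p = 0.0209). In the ordinary test neither passed (adjusted p = 0.0766 and 0.0535), and Nr3c1 did not pass with the liver covariate or without young fasted mouse339 or mouse343 (adjusted p = 0.0512 to 0.0549).

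Of 10 other measured genes of the Slc22 family, 1 rose and 3 fell in aged kidneys, and 1 rose and 5 fell in young kidneys. Their median log2 fold changes were -0.05 and -0.14, against -0.01 over all genes at both ages. Slc22a30, next to Slc22a8, fell by 0.77 in aged and 1.20 in young kidneys, and the prostaglandin carrier Slc22a22 by 0.80 and 1.18. Slc22a21, between Slc22a5 and Slc22a4, rose by a log2 fold change of 0.77 in young kidneys and had 0.18 in aged kidneys (adjusted p = 0.436). Slc22a26, next to Slc22a19, fell by 1.06 in young kidneys and had a log2 fold change of 0.41 in aged kidneys (adjusted p = 0.30). Slc22a23 fell by 0.49 in aged (adjusted p = 0.0412) and 0.42 in young kidneys. The aged result did not pass in the ordinary test or when any of 7 of the 10 aged mice was left out, the exceptions being ad libitum fed mouse43 and fasted mouse33 and mouse39 (adjusted p = 0.0541 to 0.123). Slc22a27 fell by 0.52 in young kidneys (adjusted p = 0.0138), which did not pass in the ordinary test (adjusted p = 0.0665). The 1 gene that rose in aged kidneys was Slc22a13, with a log2 fold change of 0.54 (adjusted p = 0.0169), and this did not pass in the ordinary test (adjusted p = 0.068) or without aged fasted mouse41 (adjusted p = 0.0515).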

How the data were processed

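Kidney RNA of 19 mice was measured on 1 array each. The deposited log2 values of 45141 probe sets had been background-corrected and normalized by the authors by RMA, and versions and build are not given in the sources used here. The array medians differ between ages, as if each age had been normalized on its own, which leaves comparisons within an age untouched. Of the probe sets, 28898 carried 1 gene symbol, 551 several, and 15692 were not listed in the annotation used. A gene was summarised at its brightest probe set that names it alone.

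Differences were tested in R 4.3.3 with limma 3.58.1 (lmFit and eBayes) on the log2 values, separately for 10 aged and 9 young arrays, with one fit of 4 group means to 19 arrays for the difference between ages, and Benjamini-Hochberg adjustment over all probe sets. Genes rose or fell where the adjusted p did not exceed 0.05, and calls also needed a fold change of 1.5 or more. The number of arrays limits the precision. The fits were first tested on simulated data with known changes.

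The 9 members, the gene lists and the motifs were chosen with earlier results of these data known. Array values are given in full for members called in at least 1 age and as ranges for the others. Up to 4 genes of a list are named by rule, those with the smallest adjusted p at either age. Cpt1a, Nr1h4, Nr3c1, Slc22a13, Slc22a23 and Slc22a27 lie outside the rule and were named after their values were seen, to complete small counts, as were the markers named. Also named are the 3 genes most like a member called at both ages at its brightest probe set. Lists were described by counts and medians. For no list was the share that rose or fell over all genes at their brightest probe set computed. Promoters came from RefSeq (GRCm38.p6), which held 8 of the 9 members. Alternatives were an ordinary test, array weights, robust fitting, other normalizations, a level filter, other fold minimums, a liver covariate, 1 fit for all arrays, 1 probe set per gene and leaving out arrays. Protein sequences, survival, serum, histology and RT-qPCR were not analysed here.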

Additional observations from a re-analysis of the deposited data

Results flagged for a closer look

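In 4 of 56 groups of 4 or 5 mice, 1 mouse lay far from the others by Dixon's test, where chance gives about 1 in 20. Slc22a5 at 1421848_PM_at was at a log2 level of 6.68 in young fasted mouse339, against 7.33 to 7.43 in the other 3. Slc22a8 at 1416966_PM_at was at 8.21 in young ad libitum fed mouse349, against 8.97 to 9.12 in the other 4. Slc22a12 was lowest in aged ad libitum fed mouse40 at both of its probe sets, at 10.78 against 11.23 to 11.33 for 1422898_PM_s_at and at 8.37 against 8.79 to 8.91 for 1422897_PM_at. Both probe sets measure 1 RNA sample and are not separate evidence. Within its group, mouse40 was also lowest at both probe sets of Slc22a6 and of Slc22a18, at 1421848_PM_at of Slc22a5 and at Slc22a19. It was highest at Slc22a2 and at 1450395_PM_at of Slc22a5. Its low values are thus not particular to Slc22a12.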

How the results depend on the processing

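Of 1390 values recomputed under alternatives, 1345 kept their direction and their side of the threshold or stayed within 1.5 times the count, 36 no longer passed or fell by more than 1.5 times, 9 newly passed or grew by more, and 0 passing values changed sign. The count of called Slc22 probe sets stood at 2 for aged kidneys and at 4 for young kidneys (3 in the ordinary test) at the fold minimum of 1.5. Without a fold minimum they were 6 and 11, with 5 to 7 and 9 to 12 over the other alternatives, and with a minimum of 2-fold the young count was 2. The count that differed between ages was 0 to 1 when arrays were left out in turn. For the member probe sets and the list genes named, changes of side are given with the genes in the report, and their causes were not tested. The paper describes matching of mice in pairs by body weight and sex before assignment. No paired analysis was possible because the labels do not give such pairs.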
